A study of Mus musculus with 6 samples.

Results

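A set of 129 protein-coding genes gave a signal well above background on none of the 3 arrays of fetal liver erythroid progenitors in which Exosc8 was knocked down, but on all 3 arrays of control progenitors. They were drawn from 19988 coding genes on the array, of which 11295 had a probe well above background on all 3 shExosc8 arrays and 11559 on all 3 shControl arrays. The members were chosen by the scanner software's per-spot flag for a signal well above background. A probe had to have an accession of the curated messenger RNA class (NM_), carry the flag on no shExosc8 array and on all shControl arrays, and no other probe of its gene could carry the flag on any shExosc8 array. That last condition removed 79 of 208 genes. Because the 2 groups themselves chose the genes, all differences of the members between the groups are descriptions and carry no test.

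The shExosc8 group consisted of 3 samples of progenitors from mouse fetal liver (E14.5, in embryonic days) that received a retrovirus with a hairpin RNA against Exosc8. The shControl group consisted of 3 samples of the same cells given a hairpin against luciferase, a gene that mouse cells lack. Cells of both groups were isolated with an EasySep kit, infected in the presence of polybrene and kept for 3 days in medium with dexamethasone, erythropoietin and conditioned medium containing kit ligand, during which they matured along the erythroid line. The labels give no mouse strain, no hairpin sequence and no measure of the share of infected cells, and nothing in them says whether replicates came from separate litters or cultures, so the spread between replicates may be technical.

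The RNA exosome is a ring of core subunits, Exosc8 among them, to which ribonucleases bind that trim or degrade RNA from the 3′ end in the nucleus and the cytoplasm. It matures ribosomal and small nuclear RNAs and removes short-lived and faulty transcripts, so RNAs that accumulate when it is reduced are the usual object of study, and the genes described here are those whose signal went the other way. In maturing erythroblasts the transcriptome narrows towards haemoglobin and the enzymes and membrane proteins of the red cell while many genes of other lineages are silent or barely transcribed. Array signal is measured on bulk RNA, in which fewer cells expressing a gene and less RNA per expressing cell cannot be told apart.

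The detection of a gene rests on DNA probes of 60 bases. For 93 of the 129 members a single probe stood for the gene, and for 36 the array held more than 1. The probe sequences of 4 members are shown because each flag reports hybridisation to such a stretch and to nothing else of the transcript. They are given as deposited, 5′ to 3′, with mm9 positions, and none of their bases is set in capitals. The probe of Myl7, the regulatory light chain of atrial myosin, lies on the minus strand at chr11:5798186-5798435, a span of 250 bases that is longer than the probe itself. The probe of Efcab12, a gene of the EF-hand calcium-binding type, lies at chr6:115761003-115761062, minus strand. Cep85l encodes a centrosomal protein and its probe lies at chr10:53021329-53021388, minus strand. Lcat encodes the plasma enzyme that esterifies cholesterol on lipoproteins and its probe lies at chr8:108463857-108463916, minus strand. All 4 sequences hold at least 1 reading frame without a stop codon. The probes of other members, Sh2d4a, Zfp354c, Fam120b, Cpne6 and Mc1r among them, hold no such frame, so it is not a trait of the set.
Myl7: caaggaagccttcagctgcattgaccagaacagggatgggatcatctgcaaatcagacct
Efcab12: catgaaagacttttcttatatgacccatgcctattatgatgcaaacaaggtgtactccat
Cep85l: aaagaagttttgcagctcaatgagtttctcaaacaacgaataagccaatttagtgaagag
Lcat: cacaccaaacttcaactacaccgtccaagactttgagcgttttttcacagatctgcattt

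Exosc8 itself was reduced in all 3 shExosc8 samples. Its scaled signal was 40.4%, 39.9% and 57.4% of the shControl mean in shExosc8 replicates 1 to 3, against 98.4%, 97.8% and 103.8% in shControl replicates 1 to 3. The log2 difference was −1.14 ± 0.16 (SE, n = 3 each, limma adjusted p = 0.00554), and with median centring of the arrays it was −1.04 and did not pass (limma adjusted p = 0.133). The flag for a signal well above background was set for 43.1% to 46.9% of the 59305 spots that are not controls on the shExosc8 arrays, and for 49.3%, 67.3% and 45.1% of them on shControl replicates 1, 2 and 3. shControl replicate 2 thus flagged more spots than any other array, and its median signal of 69.9 scanner units compared with 24.9 to 33.4 on the shExosc8 arrays and with 32.3 and 32.9 on the other shControl arrays. All erythroid markers examined (10 of 10, Gata1, Klf1 and the globin genes among them) were well above background on every array of both groups. The summed signal of each of 8 marker lists was higher on every shExosc8 array than on every shControl array. For the 6 megakaryocyte markers the sum was 5023 to 6863% of the array's 75th percentile in shExosc8 samples, against 528 to 738% in shControl samples, and for the 6 neutrophil and monocyte markers 4103 to 5596% against 1192 to 1455%. Weak lists moved the same way: the 8 hepatocyte markers summed to 21.9 to 34.5% in shExosc8 samples and 9.12 to 16.3% in shControl samples, with 5 and 4 of them flagged on all arrays of those groups. The 8 macrophage markers summed to 67.1 to 98.2% in shExosc8 samples and 39.3 to 53.3% in shControl samples, and Vcam1 was flagged on no array. A sum is set by its brightest genes, and single markers went the other way. Epor of the erythroid list, Kit of the mast cell list and Apoa1 of the hepatocyte list were lower in shExosc8 samples. No marker gene was a member, though 5 of the 10 spots of Apoa1 met the rule. The part of such cells in the results below was not tested.

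The members were among the dimmest genes that the control arrays detected. Their signals ranged from 6.60 to 60.5 scanner units on the shExosc8 arrays and from 32.3 to 276 on the shControl arrays, while the 75th percentile of detected probes lay between 3321 and 6252. The median member read 30.6, 20.9 and 33.1 units in shExosc8 replicates 1 to 3, against 57.6, 79.6 and 69.5 units in shControl replicates 1 to 3. Ranked by control signal among the coding genes detected on all shControl arrays, the median member stood at percentile 2.79 and the highest at 18.4, and 122 of 129 stood below the 10th. Probes differ in how well they hybridise, so this ranks brightness and not the amount of RNA. Of the 36 control-detected genes with a geometric mean control signal under 50 units, 9 (25.0%) were members. The share was 20.3% between 60 and 70 units, 13.0% between 70 and 80, 6.08% between 80 and 100 and 1.54% between 100 and 150. Between 200 and 400 units 1 of 1021 genes was a member, Sh2d4a, and at 400 units or more 0 of 8596.

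**Figure D1:**
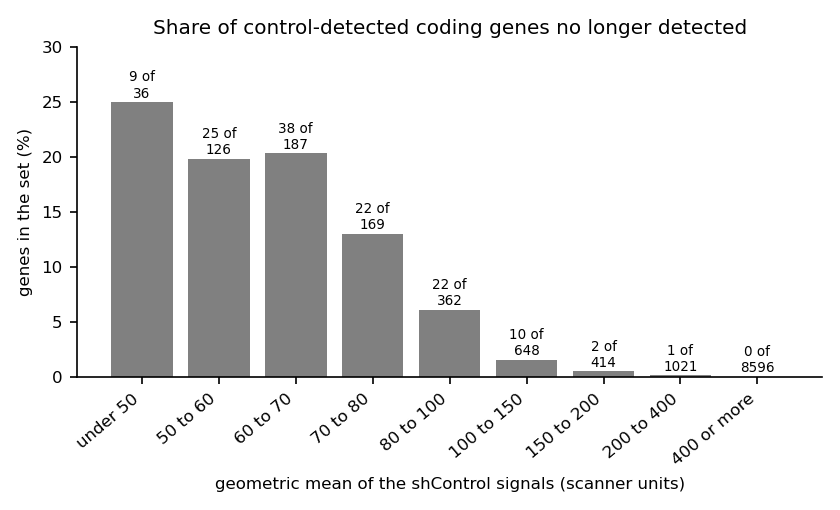
Share of coding genes detected on all 3 shControl arrays that met the rule (y axis, percent), by geometric mean of the shControl signals (x axis, scanner units), with the counts above each bar. The share was 25.0% below 50 units and 1.54% between 100 and 150 units, and no gene of 400 units or more met the rule.

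Loss of the flag did not mean loss of all signal. The software also marks a spot whose signal is significantly above background, a looser criterion than well above background. By that mark, 105 of the 129 members were still above background on all 3 shExosc8 arrays, 22 on 2 arrays, 2 on 1 array and 0 on none. The genes are therefore described as no longer well above background. A fold is given only as a lower bound, the shControl mean over a floor in shExosc8. Per array, the floor is the higher of the probe's own signal and the lowest signal of any flagged probe. Mean and floor are taken on the scaled signal, so the bound cannot be read off the printed units. For 21 members the bound did not exceed 1 and no fold is given, and the median bound over all 129 was 1.30. It passed 1.5 for 34 members, 2 for 9, 3 for 3 (Sh2d4a, Myl7 and Gipr) and 4 for 1 (Sh2d4a). The members without a fold include Ulk4, a gene of the Unc-51-like kinase family, with 30.3, 12.5 and 12.7 units in shExosc8 samples and 33.8, 32.3 and 47.3 units in shControl samples. Cdx1, a homeobox gene of the intestine, read 22.8, 10.4 and 12.0 units in shExosc8 samples and 43.9, 49.9 and 62.9 units in shControl samples. Its measured log2 difference was −1.37, yet its scaled control signal did not exceed the scaled floor.

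Sh2d4a, an adaptor with an SH2 domain, which binds phosphotyrosine, had the largest bound. Its signal was 28.3, 13.5 and 41.7 units in shExosc8 replicates 1 to 3, against 255, 191 and 239 units in shControl replicates 1 to 3, at least 4.25-fold lower. Every shExosc8 value lay far below the lowest shControl value. Myl7 read 41.6, 34.6 and 42.9 units in shExosc8 samples and 200, 223 and 166 units in shControl samples, at least 3.38-fold lower. Replicates of each group lay close together for this gene. Gipr, the receptor for the gut hormone glucose-dependent insulinotropic polypeptide, read 10.2, 7.66 and 34.7 units in shExosc8 samples and 184, 186 and 122 units in shControl samples, at least 3.02-fold lower. Its shExosc8 replicate 3 stood well above the other 2 knockdown samples. Since the gene was significantly above background on 2 of the 3 shExosc8 arrays, its measured log2 difference of −3.03 is uncertain and no rank is drawn from it. These bounds hold on the main scale, without a further background correction. With normexp correction, which adds an offset of 50 units, and the 75th percentile, the log2 differences of Sh2d4a, Myl7 and Gipr were −0.74, −0.68 and −0.53, and with normexp and quantile normalization −0.98, −0.93 and −0.77. The authors' deposited table gave log2 fold changes of −1.32, −1.26 and −1.08 for the same genes. All of these are smaller than the bounds.

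**Figure D2:**
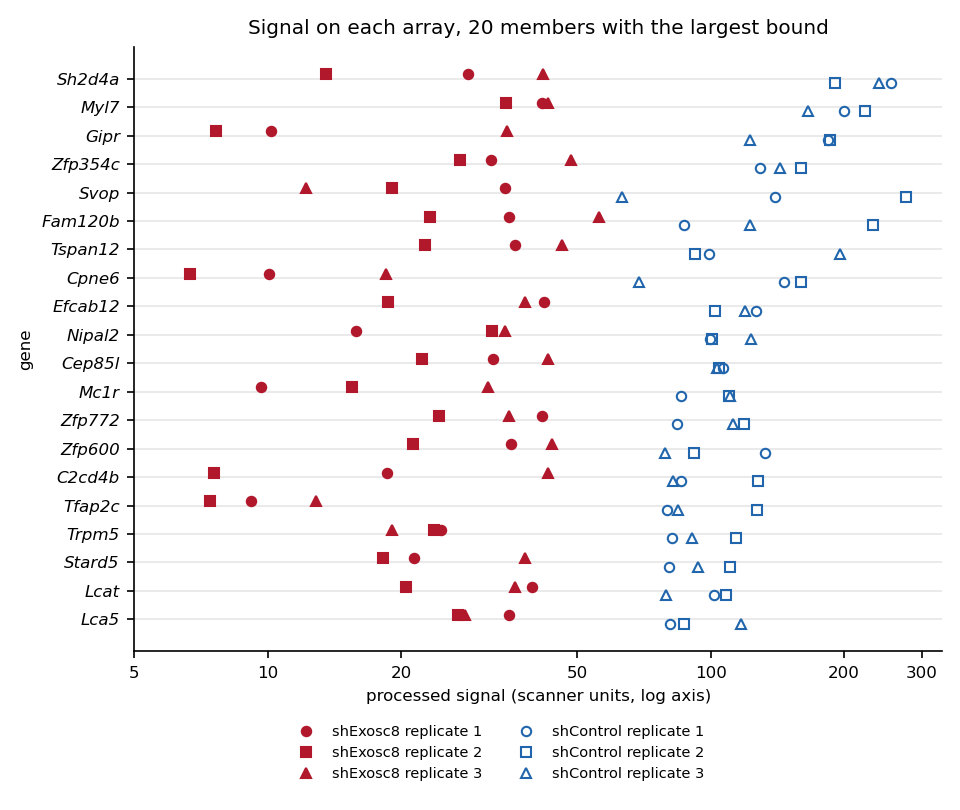
Processed signal (x axis, scanner units, log scale) on each of the 6 arrays for the 20 members with the largest bound (y axis), filled red symbols for shExosc8 and open blue symbols for shControl, 1 symbol shape per replicate number. In each of the 20 genes the 3 shExosc8 values lie below the 3 shControl values. The highest single control value is that of Svop on shControl replicate 2, at 276 units.

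Of the 12 receptors and ligands, 11 had a bound above 1 and 4 above 1.5. Besides Gipr these were Tspan12, Mc1r and Heg1. Tspan12, a tetraspanin that acts with Frizzled 4 in norrin signalling, read 36.1, 22.6 and 46.1 units in shExosc8 samples and 99.3, 92.3 and 196 units in shControl samples, at least 2.28-fold lower. In that gene shControl replicate 3 stood apart from the other 2 controls. Mc1r, the melanocortin receptor that switches pigment type in melanocytes, read 9.66, 15.5 and 31.3 units in shExosc8 samples and 85.7, 110 and 111 units in shControl samples, at least 1.90-fold lower. Glp1r, the receptor for glucagon-like peptide 1 and like Gipr of class B, had a bound of 1.20, from 28.5, 26.6 and 19.8 units in shExosc8 samples and 45.3, 105 and 55.4 units in shControl samples. Its highest control was replicate 2, and on the scaled signal its groups overlapped. Fgf11 and Mup19, a major urinary protein gene, had bounds of 1.46 and 1.37. Pmch, the precursor of melanin-concentrating hormone, had one of 1.14 and the cytokine Il11 one of 1.05.

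Kinases, adaptors and regulators of small GTPases made up 17 members, 14 with a bound above 1 and 4 above 1.5. Next to Sh2d4a stood Cpne6, a copine of neurons that binds phospholipids when calcium rises. It read 10.1, 6.68 and 18.5 units in shExosc8 samples and 146, 160 and 68.8 units in shControl samples, at least 2.20-fold lower and −2.95 in measured log2 difference. Dusp9, a phosphatase of MAP kinases, and Tbc1d16, a GTPase-activating protein of Rab proteins, each had a bound of 1.65. Dusp9 read 38.2, 35.5 and 42.4 units in shExosc8 samples and 87.8, 151 and 61.4 units in shControl samples. Its scaled groups overlapped, with shControl replicate 3 the lowest of the controls.

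The 18 genes of transcription and chromatin had a median log2 difference of −1.13, and 9 of the 129 members were zinc finger genes by symbol. Such genes were 6.98% of the members, 2.86% of the coding genes detected on all shControl arrays and 2.09% of the coding genes on the array, shares that are given as a description. Zfp354c, a Krüppel-type zinc finger protein, read 31.9, 27.1 and 48.4 units in shExosc8 samples and 129, 160 and 143 units in shControl samples, at least 2.67-fold lower. Neither Zfp772 nor Zfp600 overlapped between groups: Zfp772 read 41.7, 24.4 and 35.1 units in shExosc8 samples and 84.0, 119 and 112 in shControl samples, with a bound of 1.88. Zfp600 had a bound of 1.85, and as near-identical zinc finger copies lie beside it in the genome its signal may be shared, as may that of Zfp808. Tfap2c encodes AP-2 gamma, a transcription factor of trophoblast and germ cells. It read 9.17, 7.40 and 12.8 units in shExosc8 samples and 79.8, 127 and 84.2 units in shControl samples. The measured log2 difference of Tfap2c was −2.81, but its dim control signal left a bound of 1.78. Prdm9, the histone methyltransferase that marks sites of meiotic recombination, had a bound of 1.73.

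Muscle, cytoskeleton, adhesion and cilium genes were the largest named group with 19 members, 16 with a bound above 1 and 5 above 1.5. Cep85l followed Myl7 with 32.2, 22.2 and 42.9 units in shExosc8 samples and 106, 104 and 104 units in shControl samples, at least 1.96-fold lower. Its control values were nearly the same on the 3 arrays. Lca5, whose product lebercilin sits at the cilium of photoreceptors, read 35.0, 26.8 and 27.8 units in shExosc8 samples and 81.0, 87.1 and 117 units in shControl samples, at least 1.76-fold lower. Flnc, the actin cross-linker filamin C of muscle, had a bound of 1.70. The group also held Myh7, the beta myosin heavy chain, and the matrix metalloproteinase gene Mmp14, both at 1.28.

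Channels and transporters numbered 13, with 12 above a bound of 1 and 5 above 1.5. Svop, a transporter-like protein of synaptic vesicles, read 34.4, 19.1 and 12.2 units in shExosc8 samples and 140, 276 and 63.2 units in shControl samples, at least 2.52-fold lower. This gene had the widest control values of the lead members, with replicate 2 more than 4 times replicate 3. Nipal2, a gene named for its likeness to the magnesium transporter NIPA1, read 15.9, 32.1 and 34.3 units in shExosc8 samples and 99.8, 101 and 123 units in shControl samples, at least 1.97-fold lower. Trpm5, the cation channel of taste receptor cells, read 24.7, 23.7 and 19.0 units in shExosc8 samples and 81.7, 114 and 90.5 units in shControl samples, at least 1.77-fold lower.

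Among 14 metabolic and lipid genes, 11 had a bound above 1, 4 above 1.5 and 0 above 2. Stard5, which carries sterols in a START domain, read 21.3, 18.2 and 38.1 units in shExosc8 samples and 80.4, 111 and 93.8 units in shControl samples, at least 1.76-fold lower. A second probe of Stard5, flagged on 1 shControl array, differed by −1.29 in log2. Lcat read 39.5, 20.6 and 36.1 units in shExosc8 samples and 101, 108 and 79.1 units in shControl samples, also at least 1.76-fold lower. Abhd6, a monoacylglycerol lipase, had a bound of 1.60 and overlapping scaled groups. Its second probe, flagged on 2 shControl arrays, differed by −0.91.

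Ubiquitin and proteolysis genes numbered 10, 9 of them with a bound above 1. Kbtbd3, of the BTB-kelch class, read 35.7, 32.0 and 33.2 units in shExosc8 samples and 95.5, 95.9 and 74.6 units in shControl samples, at least 1.62-fold lower. Ncstn, the nicastrin subunit of gamma-secretase, read 36.3, 23.6 and 41.5 units in shExosc8 samples and 94.9, 86.4 and 64.7 units in shControl samples, at least 1.52-fold lower. Trim62, a RING ubiquitin ligase, had a bound of 1.36. Both groups of values were separate in these 3 genes.

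The remaining 26 members had other or little known roles, and 20 of them had a bound above 1. Fam120b, which is described as a coactivator of the nuclear receptor PPAR gamma, read 35.0, 23.3 and 56.0 units in shExosc8 samples and 87.2, 233 and 123 units in shControl samples, at least 2.40-fold lower. Control replicate 2 again gave the highest value. Efcab12 read 42.1, 18.7 and 38.2 units in shExosc8 samples and 127, 102 and 120 units in shControl samples, at least 2.09-fold lower. C2cd4b had a bound of 1.81, but its second probe, flagged on no array, differed by 0.96 the other way. Provisional names were carried by 9 members, 6.98% of the set, beside 4.63% of the control-detected and 6.37% of all coding genes.

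**Figure D3:**
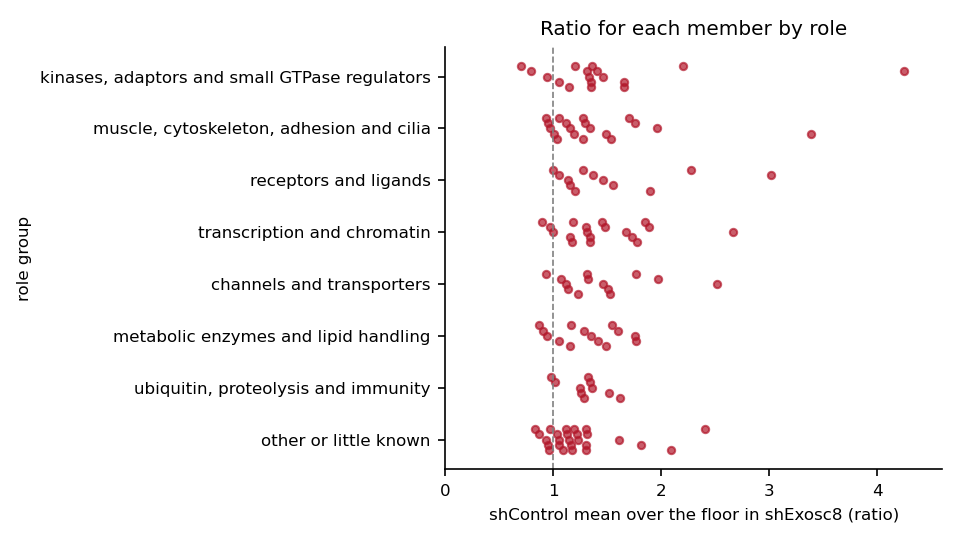
Ratio of the shControl mean to the floor in shExosc8, both on the scaled signal (x axis), by role group (y axis). Each of the 129 members is 1 point, in 8 role groups. Points right of the dashed line at 1 have a fold bound, 108 in all, and the highest in its group is Sh2d4a at 4.25, Myl7 at 3.38 and Gipr at 3.02. Points left of the line have no fold.

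Over all 129 members the median log2 difference was −0.92, with a range of −3.03 to −0.07, beside a median of −0.06 over all 18219 names tested. The size rests on how background was handled: with normexp correction and the 75th percentile the median was −0.06 and 80 of 129 members were lower. Each knockdown sample gave a similar median against the control mean: −0.95, −0.92 and −0.86 for shExosc8 replicates 1 to 3. The lowest scaled value of the knockdown samples was that of replicate 1 in 49 members, of replicate 2 in 44 and of replicate 3 in 36. The scaled values of the 2 groups did not overlap in 88 members (68.2%), beside 28.5% of all names that were lower in shExosc8 without overlap. By limma at an adjusted p under 0.05, 62 members (48.1%) were lower and 0 higher, beside 13.9% of all names lower and 16.0% higher. In the authors' deposited table, 118 members had a negative log2 fold change, between −1.58 and 0.27 over the set. That authors' deposited table gave 5 of them an adjusted p under 0.05 in the lower direction, beside 0.508% of all spots: Sh2d4a, Myl7, Zfp354c, Tfap2c and Trpm5. Nothing is read from these shares, since the same arrays chose the members. Of the genes called by limma, 46.4% were lower in shExosc8. With the 75th percentile taken over all probes this split was 62.9%, with median centring 7.68%, and with normexp background correction and the 75th percentile 33.1%.

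**Figure D4:**
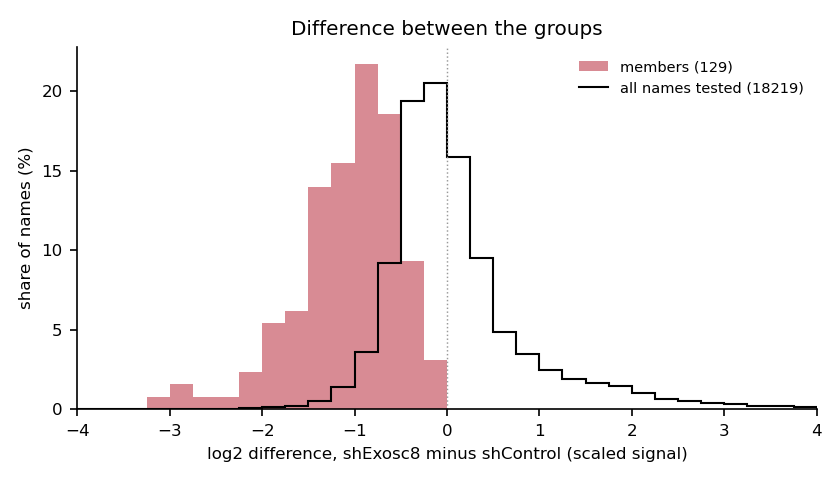
Distribution of log2 differences, shExosc8 minus shControl on the scaled signal (x axis), as percent of names (y axis) for the 129 members (filled) and all 18219 names tested (line). The members were chosen by the same arrays; their median is −0.92 and that of all names −0.06.

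The rule also bears on the other probes of the members, which had to be unflagged in shExosc8 samples but not in shControl samples. The array held 47 such probes, 24 flagged on at least 1 shControl array and 23 on no array. In 28 of the 47 the difference was negative, with a median of −0.22, beside a median of −0.06 over all names tested. Nothing is read from this count, since the rule favours lower values in shExosc8 samples. Besides those of Stard5 and Abhd6, second probes of Rilpl1 (−1.25) and Prdm9 (−0.92) read lower in shExosc8 samples. Each was flagged on only 1 shControl array, and the rule favoured this direction for them too. The second probe of Cdkn2a, the INK4a and ARF gene, was flagged on no array and differed by 0.60 in the other direction. The member probe of Cdkn2a read 31.3, 24.9 and 17.9 units in shExosc8 samples and 84.0, 101 and 55.3 units in shControl samples.

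How many genes the rule found depended on which arrays were used. The 129 members were 1.12% of the coding genes detected on all shControl arrays, and the mirrored rule, on in shExosc8 and off in shControl, gave 68 genes, 0.602% of those detected on all shExosc8 arrays. Without shControl replicate 2, 138 genes met the rule and 174 the mirror, so the order of the counts turned round. Fewer arrays loosen the rule, so all 129 members remain in it by construction. In the raw readings, shControl replicate 2 was the highest control for 71 members, replicate 3 for 49 and replicate 1 for 9. Leaving out shControl replicate 3 gave 399 genes, and leaving out shExosc8 replicate 1 gave 222. With a common limit on the scaled signal in place of the flags, 38 genes met the rule and 189 the mirror, and 16 of the 20 lead members were among the 38. Members are thus given as a list found on these 6 arrays. The median log2 difference of the 129 without shControl replicate 2 was −0.88.

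**Figure D5:**
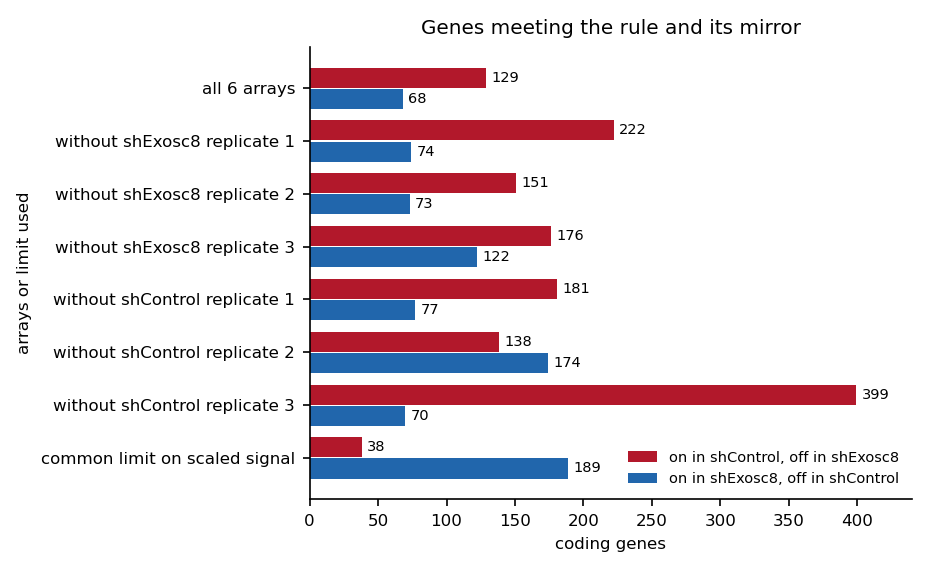
Number of coding genes (x axis) on in shControl and off in shExosc8 (red) and on in shExosc8 and off in shControl (blue), with all 6 arrays, with each array left out in turn, and with a common limit on the scaled signal (y axis). With all arrays the counts are 129 and 68; without shControl replicate 2 they are 138 and 174, and with the common limit 38 and 189.

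At the edge of the rule, members just inside differed little from genes just outside. Olfr681, an olfactory receptor of a family with near-identical copies, read 44.5, 34.0 and 41.2 units in shExosc8 samples and 68.4, 38.5 and 76.2 units in shControl samples. Rassf3 and Dpy19l4 were the other members nearest to the edge, with shExosc8 replicate 3 at 58.1 and 47.5 units. Just outside, Mmp2, a matrix metalloproteinase, carried the flag on 1 shExosc8 array and read 39.9, 22.5 and 49.8 units in shExosc8 samples and 76.5, 119 and 81.8 units in shControl samples. 1700067K01Rik and Cdk15 were the other genes nearest outside. In all, 160 coding genes were flagged on all shControl arrays and on exactly 1 shExosc8 array.

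Genes related to the lead members were examined for how the rest of each family behaved. Over 7 lists, 46 genes were called by limma, a count that was 26 without shExosc8 replicate 1, 27 without shControl replicate 1 and 30 without shExosc8 replicate 2 or shControl replicate 3. Over all names tested, 16.0% were called higher and 13.9% lower, the background for the counts of each list. Of 43 class B receptor and cyclic AMP genes, 29 were tested, 9 rose and 5 fell, with a median of 0.14. Gipr, itself 1 of the 5, was chosen for this difference. Gipr and Pde4b, which fell, entered the test only through flags on the shControl arrays. Calcrl, Adcy5 and Pde3a, which rose, entered it only through flags on the shExosc8 arrays. The filter thus favoured the direction of these genes within the counts. The secretin receptor gene Sctr read 1007, 668 and 427 units in shExosc8 samples and 243, 311 and 214 units in shControl samples, a rise of 1.88 ± 0.36 (log2 ± SE, n = 3 each, limma adjusted p = 0.0132). Calcrl, which binds calcitonin gene-related peptide and adrenomedullin with its partner proteins, rose by 3.00 ± 0.20 (limma adjusted p = 0.000508). It passed the filter through its shExosc8 arrays, and its probe was flagged on 1 shControl array. Its shControl values of 21.9, 34.3 and 23.9 units leave the size of the rise uncertain. Crhr1 and Crhr2, receptors for corticotropin-releasing hormone, rose by 1.41 ± 0.29 and 1.38 ± 0.28 (limma adjusted p = 0.0161 and 0.0151). The glucagon receptor gene Gcgr did not pass, at 0.14 ± 0.14 (limma adjusted p = 0.449). Crem, a cyclic AMP-responsive transcription factor, rose by 3.64 ± 0.20 (limma adjusted p = 0.000354). The calls of Sctr, Crhr1 and Crhr2 were lost without shExosc8 replicate 1 (limma adjusted p = 0.0520, 0.0622 and 0.0595, log2 differences of 1.68, 1.27 and 1.35) and without shControl replicate 1 (limma adjusted p = 0.0507, 0.0595 and 0.0574). Crhr1 also missed the threshold without shExosc8 replicate 2 (limma adjusted p = 0.0565), and Sctr and Crhr1 without shControl replicate 3 (limma adjusted p = 0.0573 and 0.0502). With no filter on dim probes none of the 3 passed (limma adjusted p = 0.0579, 0.0684 and 0.0660). The Sctr difference was 0.89 with the mean of all its kept probes. With normexp and quantile normalization Calcrl rose by 1.24, Crhr1 by 0.74 and Crhr2 by 0.76. Over all 6 arrays the Gipr signal was lower while those of 4 other receptors of its class were higher, Calcrl with its dim controls among them.

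Of 9 copines, 6 were tested, 2 rose and 2 fell, with a median of 0.10. Cpne6, 1 of the 2 that fell, was chosen for this difference. Cpne5 rose by 2.58 ± 0.20 (limma adjusted p = 0.000847), with 3988, 2349 and 2369 units in shExosc8 samples and 599, 680 and 719 units in shControl samples. Cpne2 rose by 0.84 ± 0.12 (limma adjusted p = 0.00572), while the abundant Cpne1 fell by 0.50 ± 0.14 (limma adjusted p = 0.0457). The Cpne2 call was lost with median centring (limma adjusted p = 0.211), and its log2 difference was 1.63 with the mean of all kept probes and 0.52 with normexp and quantile normalization. The Cpne1 call was lost when shExosc8 replicate 1 or 2 or any shControl replicate was left out (limma adjusted p of 0.104 to 0.145), with no filter on dim probes (limma adjusted p = 0.146) and with median centring (limma adjusted p = 0.873). Among 24 SH2 adaptors, 17 were tested, 3 rose and 2 fell, with a median of 0.03. Of the 2 that fell, Sh2d4a was chosen for its difference. Sh2d3c rose by 1.82 ± 0.25 and Sh2d5 by 1.17 ± 0.14 (limma adjusted p = 0.00459 and 0.00324), and by 1.02 and 0.65 with normexp and quantile normalization. All 10 genes of the INK4 and p53 list were tested, of which 3 rose and 2 fell, with a median of 0.17. Cdkn2a is 1 of the 2 and was likewise chosen by the rule. Cdkn2d, an inhibitor of the kinases that bind cyclin D, rose by 1.55 ± 0.16 (limma adjusted p = 0.00209), whereas Cdkn2b and Cdkn2c did not pass, at −0.26 ± 0.34 and 0.15 ± 0.42. Of 5 AP-2 genes, Tfap2c alone passed the filter on dim probes, and Tfap2b and Tfap2e were flagged on no array.

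Of 30 genes of stem and early erythroid progenitors, 27 were tested, 8 rose and 7 fell, with a median of 0.21 and 0 members. Mycn and Hoxa7, among the 8, entered the test only through flags on the shExosc8 arrays, so the filter favoured their direction. Of 20 neuroendocrine and neuronal genes, 7 were tested, 1 rose and 1 fell, with a median of 0.19 and 0 members. Ncam1 rose by 1.75 ± 0.14 (limma adjusted p = 0.000878). Chga differed by −4.81 ± 0.33 (limma adjusted p = 0.000580). It read 261, 137 and 177 units in shExosc8 samples and 7903, 10912 and 4589 units in shControl samples, and stayed well above background on all arrays. Olfactory and vomeronasal receptors held 2 members, 1.55% of the set, beside 0.683% of the coding genes detected on all shControl arrays and 6.67% of those on the array. Solute carriers held 4 members, 3.1% of the set, beside 1.77% of the control-detected genes. Orphan receptors, potassium channels, keratins and clustered histone genes held 0 members, but with 22, 22, 28 and 43 control-detected genes they were between 0.190% and 0.372% of that base. No departure is read from these counts.

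Members lay on every autosome and on X, and 0 on Y. Chromosome 11 held 13 of them, 10.1% beside 7.73% of the coding genes on the array, and chromosome 14 held 10, 7.75% beside 3.53%, shares that are given as a description. They held 2 pairs whose probes were within 100000 bases of each other. The zinc finger gene Zbtb4 and Fgf11, of the intracellular fibroblast growth factor class, make up 1 of them and lie 17567 bases apart on chromosome 11, on opposite strands.

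RefSeq promoters (GRCm38.p6, 250 bases before to 50 after the start) were held for 100 members, 136 promoters in all. The letters AGATAA, a form of the GATA factor motif, were found on either strand in 7.35% of them and in 11.2% of all 32851 promoters. CCNCACCC, a form bound by Klf1, was found in 16.9% and 16.6%, and TATAAA in 14.7% and 13.6%. Their median GC content was 56.7%, beside 52.7% over all promoters. Of the 20 lead members, some had no promoter held and could show no match, Sh2d4a and Gipr among them. Among those with a promoter, Lcat held an AGATAA match, set in capitals here, in its promoter on the minus strand at chr8:105943353-105943652. A match is a description of these letters and not of binding.
Lcat promoter: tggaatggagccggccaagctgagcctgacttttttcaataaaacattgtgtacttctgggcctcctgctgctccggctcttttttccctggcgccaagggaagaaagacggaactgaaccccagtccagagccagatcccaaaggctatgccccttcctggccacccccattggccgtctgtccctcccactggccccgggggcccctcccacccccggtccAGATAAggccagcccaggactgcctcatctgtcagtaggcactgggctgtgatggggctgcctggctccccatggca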

How the data were processed

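RNA of 6 samples was hybridised to 1-colour Agilent arrays. The deposited spot intensity values were made by Feature Extraction, per the file headers, with spatial background subtraction, detrending and surrogates for values near 0. The deposited log2 fold changes and p-values came from limma, per the submitters' processing notes, and their normalization was not given in the sources used here. The file headers place probes on mm9. Here log2 signals were scaled by each array's 75th percentile over probes well above background on all 6 arrays, outlier spots were dropped and spots of 1 probe averaged. A probe met the rule where all its spots did. The number of arrays limits the precision. Probes flagged on all arrays of a group were kept, the brightest stood for a gene, and limma 3.58.1 in R 4.3.3 (lmFit, eBayes, two-sided, Benjamini-Hochberg, threshold 0.05) was run over 18219 names after a test on simulated data. Names came from RefSeq by accession for 27503 of 55681 probes and by symbol for 3554, and 126 members matched by accession. Members and lists were chosen with earlier results of these data known, and roles were assigned after the member names were seen. Named genes were the 20 members with the largest bound, up to 3 well known members of each role group, genes at the edge of the rule, and relatives of named members in the lists. Any other name (further ligands, neighbours, second probes, Ulk4, Cdx1) was chosen after its values were seen. Scaling, background correction, filters, the replicate block, single arrays and forms of the rule were varied. All arrays came from the same slide and scan. The groups occupied different rows of that slide, and an effect of the row cannot be told apart from one of the hairpin.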

Additional observations from a re-analysis of the deposited data

How the results depend on the processing

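The median log2 difference of the members, −0.92, was −1.06 with the 75th percentile over all probes, −0.82 with median centring, −0.30 with normexp and quantile normalization and −0.061 with normexp and the 75th percentile, where 80 of 129 members were lower. The offset of 50 units in normexp exceeds the median member signal of every shExosc8 array. Stard5 then had 0.0037 in place of a fall. The median over all names moved from −0.06 to −0.21, 0.04, −0.09 and 0.04 in that order, and member differences are relative to it. Names called higher and lower, 2923 and 2529, were 2648 and 4488, 1802 and 150, 2671 and 2575, and 3233 and 1600 in the same order, and 1450 and 368 with no filter on dim probes, where more names were tested. The 46 called genes of the lists became 26 with median centring and 22 without the filter. Gcgr turned to −0.0035 with the 75th percentile over all probes and to −0.084 with normexp and quantile normalization, which also turned Cdkn2c to −0.012. Neither passed the threshold there.

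Left-out arrays gave 1659 (without shExosc8 replicate 1) to 4263 names higher, 688 (without shExosc8 replicate 1) to 4258 (without shExosc8 replicate 3) lower, 26 to 55 called list genes, member medians of −1.08 to −0.88, 138 to 399 genes meeting the rule and 70 to 308 meeting its mirror. The values without shControl replicate 2 together with shExosc8 replicate 3 (188 and 308 genes) were added after seeing the data. Among them Cdkn2b ran from −0.51 to 0.22 and Cdkn2c from −0.16 to 0.69, the second passing the threshold without shExosc8 replicate 3. Over the named list genes and the target in all settings, 219 values kept their direction and side of the threshold, 22 no longer passed, 5 newly passed and 8 turned sign. Over the 25 named members, 304 values moved by less than the spread between replicates, 45 by more and 1 turned sign. The cause was not tested.

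With the significance flag in place of the stricter one, 118 genes met the rule, 0 of them members, and 22 the mirror. Without the condition on other probes 208 met the rule, and with a common limit on the scaled signal 38 met the rule and 189 the mirror. Reading the rule by single spots, also added after seeing the data, gave 133 genes.

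Whether replicate numbers paired the samples was left undecided. Deviations of same-numbered samples correlated at 0.036, 0.22 and 0.30, and those of differently numbered samples at −0.26 to 0.17. With the replicate block, 3167 names were higher and 2465 lower and the member median stayed at −0.92, and 74 members were called lower, against 62 without it. A block for slide or scan was not run, since all arrays shared both. Members have no value where probes must be flagged on all 6 arrays. Dim signal limits these genes, with a median control reading of 57.6 to 79.6 units against 29.8 to 44.0 units for the dimmest flagged probe of each shControl array.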
